A study of Homo sapiens with 4 samples.

Results

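The RING and TRIM ubiquitin ligase genes described here are those whose symbol starts with RNF or TRIM followed by a digit. RNF149 was left out. Their skipped exon events were taken from a splicing table of 65601 events, of which 524 in 98 such genes carried these symbols. An event is 1 exon with the exon before it and the exon after it, so that 1 exon can stand in several events. Events were kept where the junction reads, those supporting inclusion plus those supporting skipping, averaged at least 20 over the 4 libraries. This left 445 events on 342 exons in 87 genes, of 54503 events tested in all. The other 79 events lay under the minimum, and 11 genes had no event above it: RNF144B, RNF165, RNF180, RNF182, RNF24, RNF32, TRIM17, TRIM32, TRIM36, TRIM5 and TRIM73. Just inside the minimum were events of RNF175 and RNF181, both with a mean of 20.75 reads, and just outside were events of RNF24 (19.0) and TRIM39 (18.75).

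The cells were HEK293T, a transformed line from human embryonic kidney, labelled 293T. In 2 libraries the cells had received an antisense oligonucleotide (a MOE gapmer, which directs RNase H to its target) against SNORD89, a box C/D small nucleolar RNA. In the other 2 the treatment is given as none. All labels carry 1 protocol, with 70 nM of oligonucleotide in a lipid reagent, new medium after 24 h and RNA at 48 h, so they do not say whether the untreated cells received the lipid, and no control oligonucleotide is named. Poly(A)-selected RNA was read as 150-bp pairs. The design text asks how alternative splicing differed between the treated and the untreated cells. The table holds 2 sets of 2 libraries, and neither its header nor the labels say which set was treated, so directions are given as the first set against the second set.

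The choice by symbol did not give ligases alone. TRIM14, TRIM16 and TRIM44 are TRIM proteins without a RING domain, TRIM39-RPP21 is a readthrough gene, TRIM52-AS1 an antisense gene and RNF216P1 a pseudogene of RNF216. The strand used in counting is not given in the sources used here, so reads of TRIM52-AS1 and TRIM52 cannot be told apart. Reads of TRIM16 and TRIM16L, and of RNF216 and RNF216P1, could have been split between near-identical copies, and values of these genes are uncertain.

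Ubiquitin ligases carry out the last step of ubiquitin transfer. A RING domain holds the ubiquitin-loaded conjugating enzyme next to the substrate, and in the RING-between-RING family the ubiquitin first passes to a cysteine of the ligase itself. TRIM proteins have a RING domain, B-boxes and a coiled coil in a row, followed by an end that recognises the substrate, often a PRY-SPRY domain, and many act in antiviral signalling. Exon skipping can take away part of such a domain, or shift the reading frame where the exon length is not a multiple of 3.

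The exons below carry the results on coding sequence. RNF157 encodes a ligase studied in neurons, RNF14 a RING-between-RING ligase first found as a partner of the androgen receptor, RNF213 a very large ligase with AAA ATPase modules, and RNF123 (KPC1) the catalytic subunit of a ligase for the cell cycle inhibitor p27. TRIM28 (KAP1) is the corepressor recruited by KRAB zinc finger proteins. The sequences were read from GENCODE release 29 transcripts (GRCh38), 5′ to 3′ on the coding strand, and the positions are those of the table (hg19). Capitals mark the last 2 bases, next to the 5′ splice site.
RNF157 exon 16 (66 nt, chr17:74151333-74151398, minus strand): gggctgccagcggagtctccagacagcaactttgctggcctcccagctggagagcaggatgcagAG
RNF14 exon 3 (152 nt, chr5:141354369-141354520, plus strand): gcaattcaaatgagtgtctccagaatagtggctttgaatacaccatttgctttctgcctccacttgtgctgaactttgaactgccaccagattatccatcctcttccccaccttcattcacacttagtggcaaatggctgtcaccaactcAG
RNF213 exon 56 (95 nt, chr17:78353420-78353514, plus strand): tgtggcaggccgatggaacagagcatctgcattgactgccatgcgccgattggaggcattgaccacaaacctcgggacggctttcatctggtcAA
RNF123 exon 13 (126 nt, chr3:49737660-49737785, plus strand): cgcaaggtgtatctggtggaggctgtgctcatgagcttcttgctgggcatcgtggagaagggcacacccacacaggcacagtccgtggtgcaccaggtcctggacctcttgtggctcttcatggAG
RNF123 exon 14 (93 nt, chr3:49737905-49737997, plus strand): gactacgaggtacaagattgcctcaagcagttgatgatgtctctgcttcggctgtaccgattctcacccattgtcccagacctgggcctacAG
TRIM28 exon 2 (113 nt, chr19:59056792-59056904, plus strand): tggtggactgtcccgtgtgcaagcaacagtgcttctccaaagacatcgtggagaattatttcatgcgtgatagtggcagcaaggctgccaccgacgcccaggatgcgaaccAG
TRIM28 exon 3 (133 nt, chr19:59057131-59057263, plus strand): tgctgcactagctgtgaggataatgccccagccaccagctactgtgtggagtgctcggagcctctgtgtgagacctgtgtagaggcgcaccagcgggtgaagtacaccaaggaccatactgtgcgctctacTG

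The RNF157 exon and both RNF123 exons are multiples of 3, while the RNF14, RNF213 and TRIM28 exons are not. Over the 333 matched exons of these genes 60.4% ended in AG, the bases found most often before a 5′ splice site, beside 55.3% of all tested exons and 9 of the 10 called exons. The called exons include both forms of a TRIM26 exon, which share this end, so they are not all separate sites. No letters are printed for the non-coding exons.

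Junction reads over all events ran from 38613055 to 43929373 per library, and those of the member events from 151782 to 167976. The inclusion level, the share of transcripts that keep the exon after a correction for the number of junction positions of each form, was the measure compared. Among intermediate member events, those with a mean level from 0.05 to 0.95, library 2 of the second set was farthest from the median of the 4 in 54 of 116 (46.6%), as in 43.2% of all intermediate events. Inclusion differed by more than 0.2 within the first set in 1.8% of member events and within the second set in 6.07%. Of the markers looked up for the cell type, PAX2 (kidney development) had 52 to 89 junction reads per library in 6 events, all under the minimum. LIN28B, NEFM, NEFL and the markers of other cell types (PTPRC, ALB, COL1A2, DCN, DES, PECAM1) had no event listed, which says only that no skipping event was listed.

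Most exons of these genes were kept almost always. Inclusion averaged above 0.95 in 294 of 445 events (66.1%, the same share as over all tested events), under 0.05 in 34, and in between in 116 events of 50 genes. The 1 event left over had a library without reads and was put in none of these classes. The deepest event was exon 14 of TRIM28, with 7631, 8281, 10814 and 11395 reads in library 1 and library 2 of the first set and library 1 and library 2 of the second set, in which order values are given throughout. It had 1 skipping read in all. Exon 16 of RNF40, part of the ligase for histone H2B, had an inclusion level of 0.999, 1.0, 0.999 and 0.998. In exon 4 of RNF126, a ligase for mislocalised proteins, it was 1.0, 0.999, 0.999 and 1.0. Exon 13 of RNF10 stood slightly lower, at 0.978, 0.987, 0.989 and 0.992, and exon 4 of RNF181 at 0.997, 0.998, 1.0 and 0.992. The lowest level among these 5 exons was the 0.978 of RNF10.

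By the authors' deposited test, at a false discovery rate (FDR) under 0.05 and a difference of at least 0.1, 12 member events were called. That is 2.7% of 445, beside 2.71% of all tested events, so the share is near the background. Of the 12 events, 7 were higher in the first set (1.57%, background 1.34%) and 5 lower (1.12%, background 1.37%). They lay on 10 exons of 9 genes. All 12 were of intermediate inclusion, 10.3% of the 116 such events, beside 11.1% over all genes. The levels of the sets did not overlap in 11 of the 12, and the exception was RNF31; over all called events 79.1% did not overlap. Among all 445 events the sets did not overlap in 92 (20.7%, background 22.8%), 36 of them higher in the first set (8.09%, background 9.29%) and 56 lower (12.6%, background 13.5%). The median difference over the member events was -0.0031 and over all tested events -0.0014.

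The deposited test was set beside a model whose error is the variation among libraries. By this quasi-binomial model no member event passed an adjusted p of 0.05 (Benjamini-Hochberg over all tested events), 1 event of the whole table did (0.00183%), and the smallest adjusted p of a member was 0.887. At an unadjusted p under 0.05 it gave 14 member events (3.15%, background 2.53%). limma, run on log2 ratios of the inclusion and skipping counts, gave 0 at an adjusted p under 0.05 (0% of all events) and 13 at an unadjusted p under 0.05 (2.92%, background 4.87%). limma with precision weights gave 3 (0.674%, background 0.657%), in RNF138, RNF14 and TRIM28. The sets of the RNF138 event overlap, at 0.982, 0.987, 1.0 and 0.926. Its difference was 0.0216, and -0.0155 without library 2 of the second set. The calls below therefore rest on the deposited test.

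**Figure D1:**
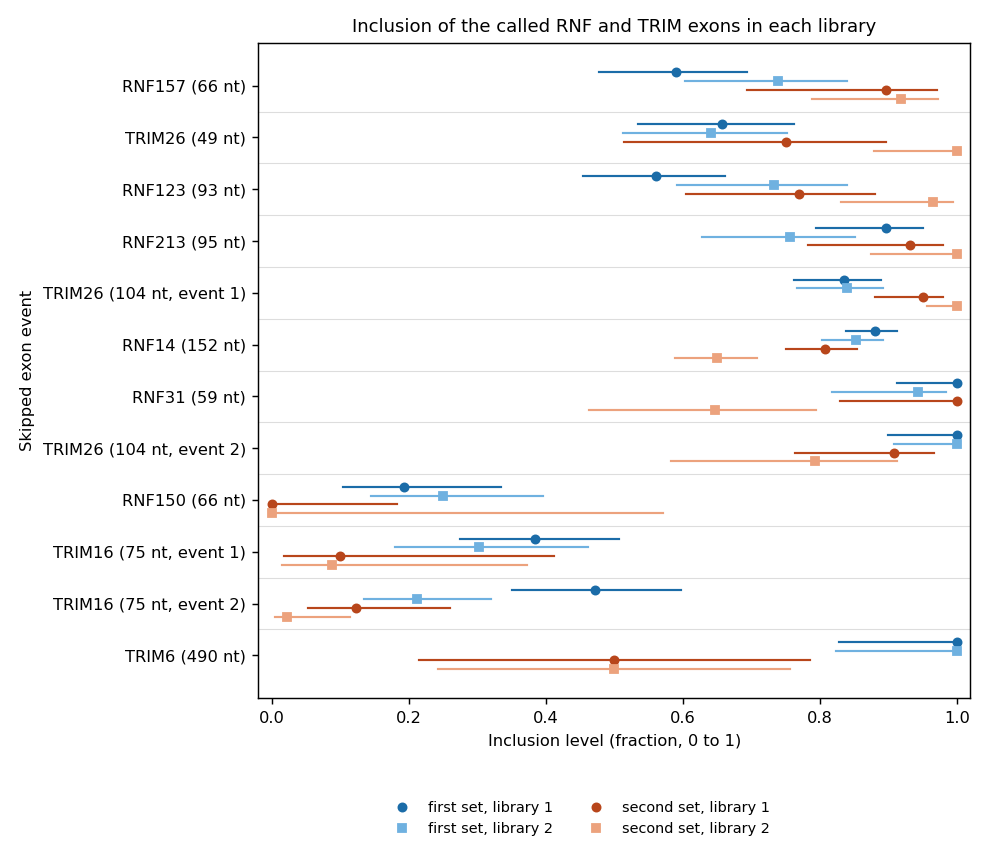
Inclusion level (horizontal axis, fraction from 0 to 1) of the 12 called events (vertical axis) in each library, with bars for Wilson 95% intervals from the junction reads. The TRIM26 exon of 104 nt has event 1 (first acceptor) and event 2 (second acceptor), and the TRIM16 exon of 75 nt has event 1 (the shallower event) and event 2 (the event with most reads). TRIM6 stands at 1.0 in the first set and 0.5 in the second, and in RNF31 only library 2 of the second set is low.

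In the list of PRY-SPRY TRIM genes 4 of 44 events were called (9.09%, background 2.71%), with 2 in each direction, in TRIM6 and TRIM26. TRIM14, TRIM16 and TRIM16L carry this domain too but were listed with the other TRIM genes, so these counts do not cover every TRIM gene with the domain. TRIM6, which makes unanchored ubiquitin chains in interferon signalling, had the smallest FDR. Exon 2 of TRIM6 (490 nt, partly coding, chr11:5624476-5624965) had an inclusion level of 1.0, 1.0, 0.5 and 0.5. These levels rest on 37, 36, 9 and 12 junction reads, with 0, 0, 3 and 4 skipping reads. The second set is low and shallow in both libraries, with Wilson intervals of 0.215 to 0.785 and 0.243 to 0.757. The difference in the authors' deposited table was 0.5 (FDR 6.56e-05); without the length correction it was 0.333. The quasi-binomial model, fitted across all tested events, gave an unadjusted p of 0.0147.

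TRIM26, a ligase of the major histocompatibility region with roles in antiviral signalling, had 3 called events on overlapping non-coding exons that share 1 end. The exon is 49 nt or 104 nt long (chr6:30168812-30168860 and chr6:30168812-30168915, minus strand), depending on its 3′ splice site. Read between the 110-nt exon before it (30172433 to 30172542) and the first acceptor after it (30166930), the 104-nt exon was included at 0.836, 0.84, 0.95 and 1.0. That event had 193, 188, 134 and 144 reads, and the first set was lower in both libraries. In the authors' deposited table the difference was -0.137 (FDR 7.2e-05), and it was -0.0874 without the length correction.

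The same 104-nt exon gave the opposite direction when it was joined to the second acceptor (30166767). Its inclusion was then 1.0, 1.0, 0.908 and 0.793, with 0, 0, 3 and 4 skipping reads, and the difference in the authors' deposited table was 0.149 (FDR 0.0107). Without library 2 of the second set this difference was 0.0925, and without the length correction 0.095. The 49-nt form, read between the same exons as the first event, had 0.657, 0.641, 0.751 and 1.0. It shares its skipping reads (20, 19, 4 and 0) with the first event, so these 2 calls are not separate evidence. For the 49-nt form the authors' deposited table gives -0.226 (FDR 0.0189), and the difference was -0.102 without library 2 of the second set and -0.351 without library 1 of that set.

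Read from an exon farther upstream (30181082 to 30181204) to the first acceptor, neither form was called. There the 104-nt form had 0.596, 0.641, 0.488 and 0.599, and the 49-nt form 0.482, 0.493, 0.224 and 0.388. In the authors' deposited table these differences were 0.075 (FDR 0.853) and 0.181 (FDR 0.129). Their skipping junction also leaves out the exon at 30172433 to 30172542, so these levels mix loss of both exons. Read from that exon, the 104-nt form still changed direction with the acceptor it was joined to. Exons with differences of at least 0.05 in both directions were 3 of the 76 member exons with several events (3.95%). They lay in TRIM26 and RNF135, and the share over all genes was 4.85%.

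**Figure D2:**
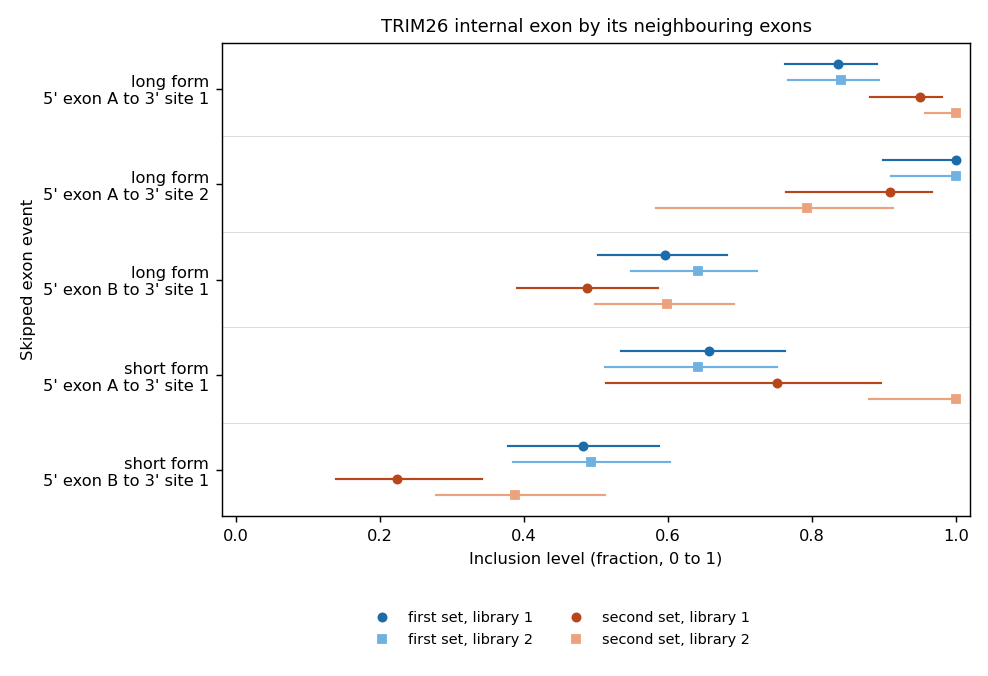
Inclusion level (horizontal axis, fraction from 0 to 1) of the TRIM26 exon in its short (49 nt) and long (104 nt) form, by the exon before it (A, the 110-nt exon, or B, the exon farther upstream) and the 3′ splice site after it (site 1 or site 2, the first and second acceptor). Points are libraries and bars Wilson 95% intervals; the events from exon A to site 1 lie lower in the first set, and the event from A to site 2 lies higher.

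The bromodomain TRIM genes (TRIM24, TRIM28, TRIM33 and TRIM66, transcriptional corepressors) had no called event among 27. The NHL genes had none among 8 and the COS-box genes, which bind microtubules, none among 3. With a background of 2.71%, groups of this size are too small for a lack of calls to set them apart. Of the other TRIM genes 2 of 45 events were called (4.44%), both on 1 exon of TRIM16. TRIM16 binds galectins and takes part in the autophagy of damaged membranes. In the event with most reads its 75-nt exon (chr17:15562116-15562190, minus strand, partly coding) was included at 0.472, 0.212, 0.122 and 0.0217. That event had 61, 59, 29 and 31 reads, and both first-set libraries were higher. In the authors' deposited table the difference was 0.27 (FDR 0.00353), and it was 0.14 without library 1 of the first set. With another exon before it the same exon stood at 0.384, 0.302, 0.0998 and 0.0868, but the second set had only 7 and 8 reads. There the authors' deposited table gives 0.249 (FDR 0.0242). The skipping junction of the deeper event, with 26, 42, 24 and 30 reads, also leaves out another exon of the gene. The same holds for the other event, with 31, 20, 6 and 7 skipping reads. Both calls therefore count reads that skip several exons, and they do not show loss of this exon alone.

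TRIM28 held the deepest event of intermediate inclusion, that of exon 3, with 2263 to 2427 reads per library. Exon 3 came under the rule for named events, and exon 2 was added after its values were seen. Exon 2 was included at 0.869, 0.873, 0.826 and 0.786, and exon 3 at 0.881, 0.89, 0.876 and 0.823. Both events count the same skipping reads, since the skipping junction runs from exon 1 to exon 4. This junction had 155, 148, 158 and 248 reads. Skipping of exon 2 alone had 5, 0, 6 and 4 reads, and skipping of exon 3 alone 2, 2, 8 and 6, so the exons were mostly left out together. Each single-skip junction counts as inclusion of the other exon, and the length correction divides by it although it had few reads. The levels above therefore understate how often each exon was kept. Together the exons span 246 nt, a multiple of 3, which neither is alone.

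Of the reads in the exon 2 event of TRIM28, 7.87% (Wilson 95% interval 6.76 to 9.15%), 7.64% (6.54 to 8.91%), 10.7% (9.24 to 12.4%) and 13.4% (11.9 to 15%) skipped both exons. The mean share was 7.76% in the first set and 12.1% in the second, and the sets did not overlap. In the authors' deposited table exon 2 differed by 0.065 (FDR 0.00574), short of the 0.1 asked of a call, and exon 3 by 0.036 (FDR 0.141). The size depended on library 2 of the second set, without which the difference was 0.0455 for exon 2 and 0.00951 for exon 3. Without library 1 of that set exon 3 differed by 0.0624. For exon 2 limma with precision weights gave an adjusted p of 0.00032, and the quasi-binomial model an unadjusted p of 0.00203 but no adjusted p under 0.05.

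**Figure D3:**
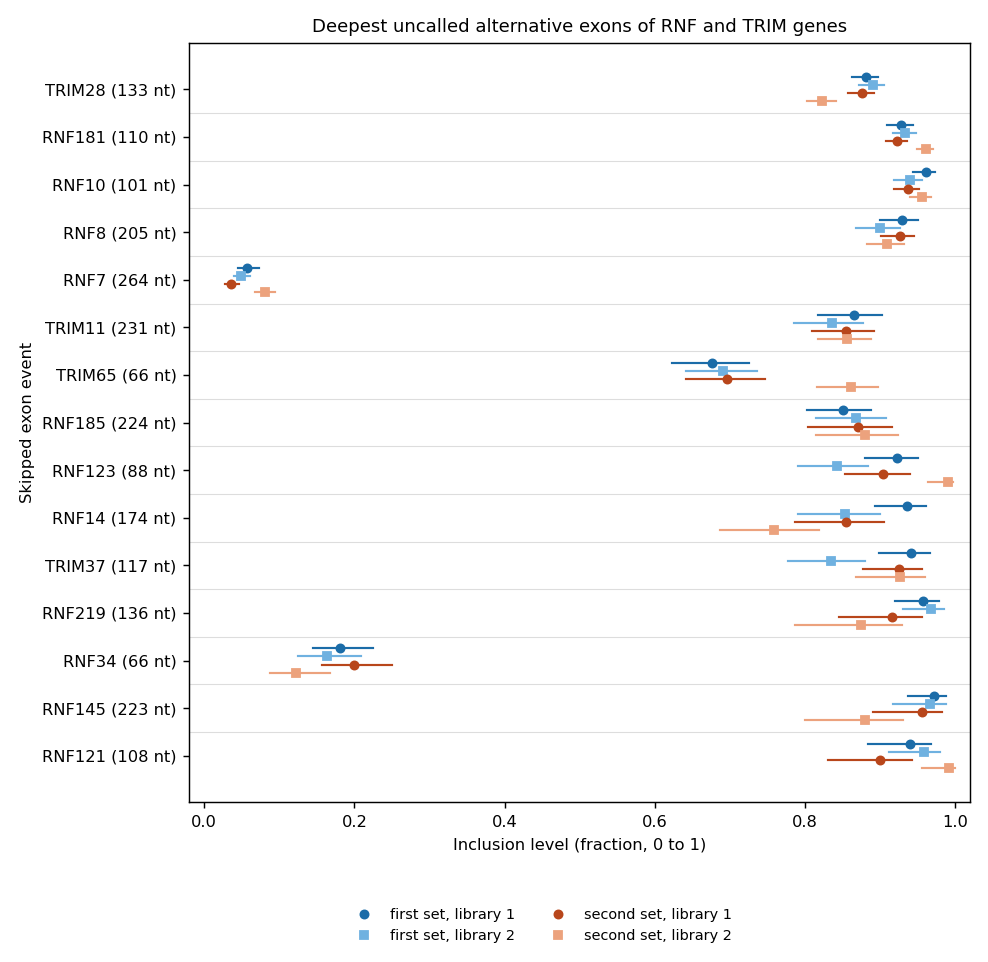
Inclusion level (horizontal axis, fraction from 0 to 1) in each library of the deepest uncalled event of intermediate inclusion in each of 15 genes, with bars for Wilson 95% intervals. The sets overlap in 10 of the 15 genes, and in TRIM65 only library 2 of the second set stands apart. Over all tested events the sets did not overlap in 22.8%.

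Among the RING-between-RING genes 2 of 33 events were called (6.06%, background 2.71%), both higher in the first set. Exon 3 of RNF14 was included at 0.88, 0.853, 0.808 and 0.65, on 531, 415, 357 and 321 reads. Of the called exons it is the deepest. The lowest value is that of library 2 of the second set, and the difference in the authors' deposited table was 0.137 (FDR 0.0142). The difference was 0.0586 without that library, 0.216 without library 1 of the second set and 0.0874 without the length correction. limma with precision weights gave an adjusted p of 0.00296, and the quasi-binomial model an unadjusted p of 0.0073. With a later exon after it (141359688 to 141359916), exon 3 of RNF14 stood at 0.992, 0.991, 0.978 and 1.0. That event had 254, 228, 180 and 112 reads and was not called. Its sets overlap, and its deposited difference was 0.003. The skipping junction of that event also leaves out the 528-nt exon in between (141357868 to 141358395), and it had 1, 1, 2 and 0 reads. That event therefore counts loss of both exons and cannot show whether the called difference of exon 3 holds. A non-coding exon of RNF14 (174 nt, chr5:141350269-141350442) was not called and its sets overlap, at 0.935, 0.853, 0.855 and 0.758. There the authors' deposited table gives 0.088 (FDR 0.0528).

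RNF31 (HOIP) is the catalytic subunit of the complex that builds linear ubiquitin chains. Its 59-nt non-coding exon (chr14:24617041-24617099) had 1.0, 0.944, 1.0 and 0.647, with 0, 2, 0 and 9 skipping reads. The sets overlap, and only library 2 of the second set is low. For it the authors' deposited table gives 0.148 (FDR 0.0463). Without library 2 of the second set it was -0.028, in the other direction, and without library 1 of that set 0.325.

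The membrane-bound RNF genes, which sit in the endoplasmic reticulum, endosomes or other membranes, had 1 called event among 80 (1.25%, background 2.71%). In RNF150, a transmembrane RING protein, a 66-nt partly coding exon (chr4:141974820-141974885, minus strand) was included at 0.193, 0.25, 0.0 and 0.0. The reads were 35, 37, 12 and 2, so the last library holds almost no information and its Wilson interval reaches 0.571. For this exon the authors' deposited table gives 0.222 (FDR 0.00171). Of the chromatin and DNA damage genes, such as RNF8, RNF168, RNF20 and RNF40, no event among 62 was called. With a background of 2.71% few calls would fall in 62 events, so this does not set the group apart. Inclusion was above 0.95 in 51 of the 62 (82.3%, beside 66.1% of all tested events).

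The remaining RNF genes had 3 called events among 143 (2.1%, background 2.71%). All 3 were lower in the first set and on coding exons, too few to read as a pattern. Over all tested events 729 calls were higher and 748 lower. Exon 16 of RNF157, read up to the exon at 74150364 to 74150409 after it, was included at 0.59, 0.739, 0.897 and 0.919, on 83, 61, 27 and 52 reads. Both first-set libraries are lower, and the authors' deposited table gives -0.244 (FDR 0.00459). Read up to a different exon after it, the same exon had 0.959, 0.797, 1.0 and 1.0. There the authors' deposited table gives -0.122 (FDR 0.298), which is no call. Exon 56 of RNF213 was included at 0.896, 0.756, 0.931 and 1.0, on 91, 73, 46 and 44 reads. The authors' deposited table gives -0.139 (FDR 0.0169); the difference was -0.069 without library 2 of the first set and -0.209 without library 1 of that set.

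Exon 14 of RNF123 was included at 0.56, 0.733, 0.77 and 0.966, on 95, 60, 45 and 47 reads. Its difference in the authors' deposited table was -0.221 (FDR 0.0454). It was -0.135 without library 1 of the first set and -0.123 without library 2 of the second set. The skipping junction of this event runs from exon 12 to exon 15, so exon 13 is left out as well. It had 31, 11, 7 and 1 reads. Exon 13, which was looked at after these values were seen, counts the same skipping reads. It was included at 0.751, 0.857, 0.879 and 0.973, and the authors' deposited table gives -0.122 (FDR 0.058).

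Of the reads in the RNF123 exon 13 event 15.2% (Wilson 95% interval 10.9 to 20.8%), 8.27% (4.68 to 14.2%), 6.93% (3.4 to 13.6%) and 1.49% (0.264 to 7.98%) skipped both exons. The mean was 11.7% in the first set and 4.21% in the second. Skipping of exon 13 alone had 2, 0, 0 and 0 reads, and skipping of exon 14 alone 8, 4, 2 and 5. Each single-skip junction counts as inclusion of the other exon, and the length correction divides by it although it had few reads. The levels of exons 13 and 14 above therefore understate how often each was kept. Without the length correction the exon 14 difference was -0.166. Read against its direct neighbours, exon 14 had 0.928, 0.963, 0.972 and 0.928, and in the authors' deposited table the difference was -0.004 (FDR 1.0). The called difference of exon 14 is thus one in reads that skip the pair, which spans 219 nt. Over the member events 37 junctions in 22 genes skip several separate exons, and 8 of these had at least 20 reads in every library.

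Among the deep uncalled events, the 15 genes taken by depth showed sets that overlapped in 10 and did not in 5. The sets did not overlap in 26.7% of all intermediate member events and in 22.8% of all tested events, so 5 of 15 sets these genes apart in no clear way. Exon 3 of RNF181 was at 0.928, 0.933, 0.922 and 0.961 on 1409 to 2258 reads, and exon 14 of RNF10 at 0.961, 0.939, 0.937 and 0.956. In both genes the sets overlapped. A 205-nt exon of RNF8, the ligase that starts ubiquitin signalling at DNA breaks, was at 0.929, 0.9, 0.926 and 0.909. A 264-nt exon of RNF7 (RBX2), the RING subunit of cullin ligases, was mostly left out, at 0.0575, 0.049, 0.0358 and 0.0804. Exon 3 of TRIM11 was at 0.865, 0.836, 0.855 and 0.856, a spread within the Wilson interval of each library.

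Exon 5 of TRIM65, a ligase for the RNA sensor MDA5, had 0.676, 0.691, 0.696 and 0.861 on 344 to 427 reads. Only library 2 of the second set stands apart, and the authors' deposited table gives -0.095 (FDR 0.214). Without that library the difference was -0.0122. Exon 2 of RNF219 had 0.957, 0.967, 0.916 and 0.874, and exon 2 of RNF145 0.972, 0.966, 0.955 and 0.88. In both the first set was higher in both libraries, and the authors' deposited table gives differences of 0.067 (FDR 0.0735) and 0.051 (FDR 0.134). The RNF145 difference was 0.0144 without library 2 of the second set and 0.0894 without library 1 of that set. Exon 2 of RNF185, a ligase of endoplasmic reticulum degradation, was at 0.85, 0.868, 0.87 and 0.879, a difference within the Wilson intervals. Exon 29 of RNF123 was at 0.922, 0.843, 0.904 and 0.99; the sets overlap, although the authors' deposited table gives an FDR of 0.0253 for its -0.065.

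The remaining 3 genes of these 15 also overlapped between the sets. A 117-nt exon of TRIM37, a ligase at centrosomes and peroxisomes, stood at 0.941, 0.835, 0.925 and 0.926. A 66-nt exon of RNF34 had 0.181, 0.163, 0.199 and 0.122, and a 108-nt exon of RNF121 0.939, 0.958, 0.899 and 0.992. The FDR in the authors' deposited table was 0.612 for TRIM37 and 1.0 for RNF34 and RNF121.

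An FDR under 0.05 without regard to size was reached by 26 member events (5.84%, background 5.72%), and 14 of them differed by less than 0.1. A deposited p-value under 0.05 was reached by 71 (16%, background 14.3%). The 14 small differences, apart from those of TRIM28 and RNF123 above, lay in RNF10, RNF121, RNF13, RNF170, RNF20, RNF216P1, RNF31, RNF41, RNF8, TRIM13, TRIM16 and TRIM65, listed here because their number was seen first. The smallest FDR among them was that of RNF41 (NRDP1, a ligase for ErbB3), where a 143-nt exon was included at 0.0101, 0.00724, 0.0283 and 0.0595. The second set was higher in both libraries, and the authors' deposited table gives -0.035 (FDR 0.00324).

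**Figure D4:**
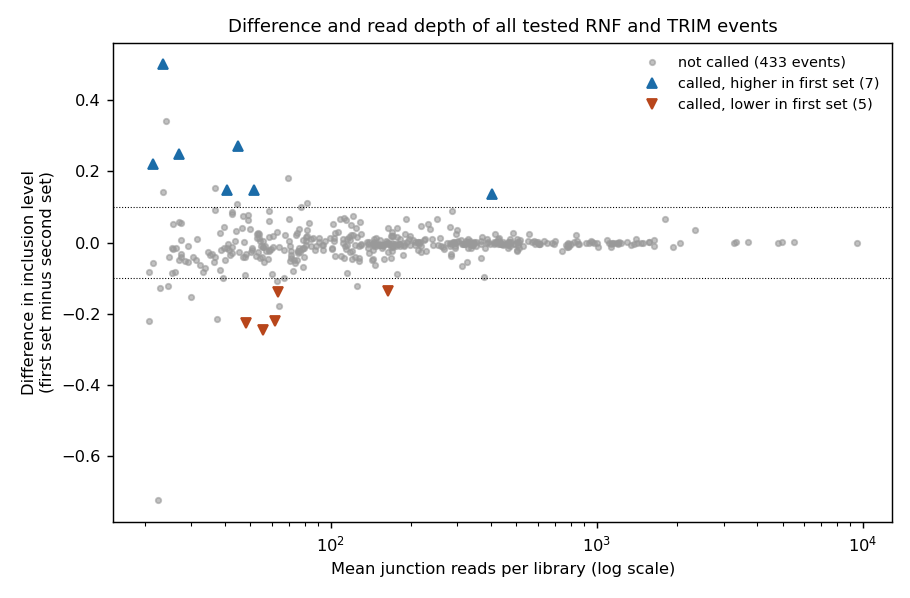
Difference in inclusion level (first set minus second set, vertical axis) against mean junction reads per library (horizontal log axis) for all 445 member events, with called events as triangles and dotted lines at a difference of 0.1 in either direction. Of the 12 called events 10 lie at a mean of 76 reads or fewer.

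The 116 intermediate events were ordered by mean reads into 4 groups of 29, and the calls in these numbered 4, 6, 0 and 2, or 13.8%, 20.7%, 0% and 6.9%. All intermediate events of the table, split at the same read numbers, were called in 18.2%, 15.6%, 9.2% and 2.91%, so the shallower groups held more of the calls in the whole table too. The median standard deviation within sets fell over the same groups from 0.123 to 0.102, 0.0675 and 0.0395. Called events had a median of 49.8 reads and uncalled events 157. In each second-set library 3 of the 12 called events had fewer than 20 reads. The part of this depth in the calls was not tested.

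The median exon length was 116 nt (118 nt over all tested events), and 40.1% of the exons were multiples of 3 (40.3%). The introns beside them had a median of 5900 nt, beside 4670 nt over all tested events. Of the 445 events 434 (97.5%) matched a GENCODE 29 transcript by the spacing of the 3 exons. In these, 223 exons were coding, 126 partly coding and 85 non-coding.

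The rest of the RING ligase genes gave a similar share. A list of 80 others, such as MDM2, XIAP, CBL, TRAF6, BRCA1 and SYVN1, had 420 tested events in 60 genes, of which 10 (2.38%) were called, with 3 higher and 7 lower. The TRIM genes had 6 called events of 127 (4.72%) and the RNF genes 6 of 318 (1.89%), counts that rest partly on several events of 1 exon. No difference between these groups was tested.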

How the data were processed

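Poly(A) RNA-seq of 4 HEK293T libraries was used, 2 per labelled group, called biological replicates in the labels. The submitters' processing notes name cutadapt, STAR and hg19 without versions or roles. The skipped exon table has the column layout of rMATS, whose version is not given in the sources used here. In it the authors deposited counts of inclusion and skipping junction reads per library (comma-joined in 1 cell per set), inclusion levels as a fraction from 0 to 1, their difference (first set minus second set), and a p-value and FDR per event. The deposited score-like columns for form lengths were used as read. Nothing says which set is treated, so no column could be tied to a single sample.

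From the deposited counts the inclusion levels were recomputed; deposited and recomputed differences agreed within 0.00137. Wilson intervals (95%) were carried through the length correction. Junction reads carry no molecular identifiers, so intervals cover counting error only. Events with a mean of at least 20 reads were tested. A call was a deposited FDR under 0.05 with a difference of at least 0.1. A quasi-binomial model per event (R 4.3.3, dispersion moderated with limma 3.58.1, at least 1, Benjamini-Hochberg over all tested events) took the spread between libraries as error. This model was specified 3 times, with the counts from these data in view each time. Tested on simulated data, a first form, moderated over all events, found none of the changes put in, and it called no event here. The form kept takes its prior from events with at least 10 reads of the rarer form, with a trend on depth, since it alone found such changes where simulated libraries varied beyond counting error. Without the trend it also called 1 event of the whole table. It departs in this from the plan. The changes put in by simulation lay only at middle inclusion and were larger than most called differences here. What the model finds for smaller changes, or near full or no inclusion, was not tested. The alternatives were limma on log2 ratios with a pseudocount of 0.5 or 1 or with precision weights, other minimums and thresholds, and leaving out each library. limma without weights found none in the same test, so its count of 0 says nothing about stability.

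Named were up to 15 called events, 1 per exon by most reads; the deepest uncalled event of intermediate inclusion in up to 15 genes; the 5 deepest above 0.95; and any event past the quasi-binomial threshold. Members, lists and groups were chosen with earlier results of these data known. Exons were matched to GENCODE release 29 by spacing, with no coordinates converted. Python 3.11.15, pandas 2.3.3, scipy 1.17.1 and matplotlib 3.10.9 were used.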

Additional observations from a re-analysis of the deposited data

How the results depend on the processing

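The 12 called events became 6 at a mean of at least 50 reads, 20 at a difference of at least 0.05, 7 at 0.2 and 5 at an FDR under 0.01. They were 16 with a minimum of 10 reads, 18 with no minimum, 8 with 1 event per exon, 11 with sets that do not overlap and 10 without the length correction. Leaving out 1 library in turn, 9 to 12 kept their direction and a size of 0.1 or more. Without library 2 of the second set, RNF14, RNF31 and 1 TRIM26 event fell short of it, and RNF31 reversed to -0.028 (it was 0.325 without library 1 of that set); without library 2 of the first set RNF213 fell short. The quasi-binomial count of 0 became 3 with limma and precision weights, and lay between 0 and 4 when 1 library was left out. The 4 came without library 1 of the second set, in RNF10, RNF14, TRIM28 and TRIM65, where 436 of all events passed (0.8%). The lone library of a set is then assumed to vary like the other set. Of 150 alternative values for 30 named events 145 moved by no more than the standard deviation within sets, 4 moved by more, and RNF31 was the called event that changed sign. Leaving out 1 library cannot move a difference by more than this standard deviation, so most of the 145 say nothing about stability. The 4 that moved by more were values without the length correction, in TRIM6, TRIM26, RNF150 and RNF219. In 10 uncalled events, of RNF10, RNF121, RNF126, RNF181, RNF34, RNF7, RNF8, TRIM11 and TRIM37, 14 of the 150 values also had the other sign. The main differences of these events were at most 0.0376 in size, and the values of the other sign at most 0.0435. No paired analysis was possible because the table carries no replicate numbers. In each library of the second set 3 called events had fewer than 20 reads, and their levels have wide counting intervals.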
